A study of Drosophila melanogaster with 16 samples.

Results

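The 10 transcripts described here encode kinesins of the Drosophila mitotic spindle, a chosen set that is not claimed to be complete. They were picked by exact gene symbol, Klp10A, Klp61F, Klp67A, Klp3A, Klp59C, ncd, pav, nod, cmet and sub, from the 9977 genes of the deposited count table, and all 10 symbols matched a single gene. The libraries are poly(A) RNA-seq of Schneider 2 (S2) cells, a line derived from fly embryos, that had been given 40 μg/ml of dsRNA with daily boosts and were harvested on day 3. The dsRNA was directed against imp, which encodes an RNA-binding protein of cytoplasmic mRNA granules, or, as the control, against luciferase of the firefly, which has no counterpart in the fly genome. There were 3 libraries per treatment, and per the study's methods the replicates were made on different days. A pair of dsRNA fragments of the imp coding region is named and a single luciferase fragment, and which imp fragment each library received is not given in the sources used here. Both treatments share the line, the soaking and a short serum-free incubation, and no allele differs between them. The labels describe the RNA as cytoplasmic mRNA, while the extraction given is poly(A) selection from total RNA.

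Kinesins are motors that use ATP to move along or shorten microtubules. In a dividing cell they push the spindle poles apart, pull them together, shorten microtubules at poles and kinetochores, hold chromosomes, and build the central spindle on which the cleavage furrow depends. S2 cells have long been used in RNA interference studies of the fly spindle. The comparison asks whether loss of Imp alters steady-state mRNA amounts, a question the study raised for actin genes and which is put here to the spindle motors. After correction for multiple testing, the paper itself reported no significant change of any mRNA in these triplicates. It also reported that the Imp protein was reduced. In bulk RNA, a change in the share of dividing cells cannot be told apart from a change in RNA per cell.

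Library totals ran from 1081882 to 5463535 counts, the shallowest and the deepest both after imp dsRNA. The targeted Imp transcript stood at 233, 324 and 455 CPM (replicates 1, 2 and 3) in the imp dsRNA libraries and at 660, 738 and 814 CPM in the luciferase dsRNA libraries. The groups did not overlap and the labels held, with a log2 difference of -1.18 (SE 0.18, adjusted p = 0.113 by edgeR). The adjusted p was 0.00018 by DESeq2 with the replicate block and 2.98e-06 by edgeR with no filter on low counts. CPM are counts scaled to a common library size by the TMM method. Of the 10 hemocyte markers, the cell type S2 cells resemble, 9 were matched by symbol, and every one had counts. Hml had 2.92 to 9.03 CPM, Sr-CI 1.82 to 112 CPM and Cg25C 2204 to 5534 CPM. The blood cell GATA factor srp had 479 to 836 CPM. The summed hemocyte markers ran from 5702 to 9310 CPM after imp dsRNA and from 4489 to 5406 after luciferase dsRNA, without overlap. Most of the sum came from Cg25C and vkg (1052 to 2574 CPM), so it does not speak for each marker. Of all genes tested, 2.8% lay higher in this way, and the part of the markers in the kinesin values was not tested. The 6 germ line markers summed to at most 21.2 CPM, and vas, a defining germ line gene, had 3 counts in all 6 libraries together. The 3 matched neuron markers summed to 93.2 to 131 CPM after imp dsRNA and 88.3 to 119 in controls, and the 4 muscle markers to 53.7 to 89.4 and 33.8 to 78.4 CPM, mostly from elav, brp and Mef2.

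Of the 10 kinesin transcripts, 9 were present in every library and 1, Klp59C, was all but absent. After imp dsRNA none of the 9 passed the test for a difference: edgeR's quasi-likelihood test gave each an adjusted p of 0.999, and 0 of 9 were under 0.05, as were 0 of all 6526 genes tested (0%). At an unadjusted p under 0.05 there were 0 of 9, where 188 genes (2.88%) passed by edgeR and 197 genes (3.02%) by limma-voom. At these shares 0 of 9 does not set the kinesins apart from other genes. The same edgeR fit left the targeted Imp at an adjusted p of 0.113, so an adjusted p above 0.05 does not exclude a change. Their log2 fold changes, imp dsRNA over luciferase dsRNA, lay between -0.27 and 0.12. The level summed over the 10 was 975 ± 68.5 CPM (SD, n = 3) in the imp dsRNA group and 1032 ± 100.2 CPM (SD, n = 3) in the control group. The log2 ratio of the summed level was 0.025, -0.092 and -0.17 in the pairs of replicates 1, 2 and 3, a mean of -0.080 ± 0.099 (SD, n = 3 pairs), smaller than the spread between pairs.

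**Figure D1:**
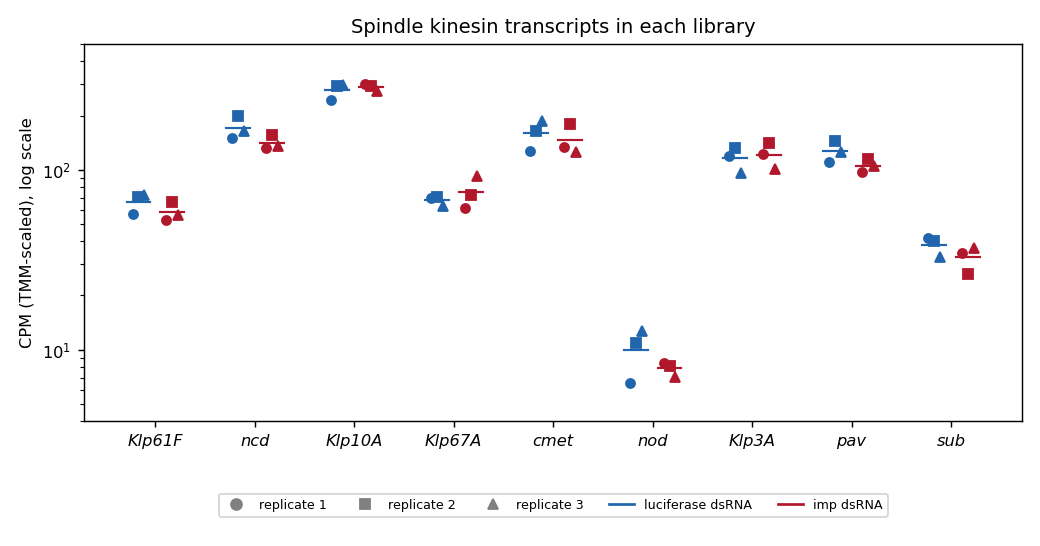
Level of 9 kinesin transcripts in each library, in CPM on a log axis. Each point is 1 library, marker shapes give the replicate number, blue is luciferase dsRNA, red is imp dsRNA, and short lines are means of 3 libraries. CPM are not divided by transcript length. Klp10A sits highest, at 243 to 299 CPM, nod lowest, at 6.54 to 12.7 CPM, and the points of the treatments overlap for every gene. Klp59C, with 1 count in all, is not drawn.

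The motors that set the distance between the poles were read first. Klp61F, a kinesin-5 whose bipolar tetramers slide antiparallel microtubules apart, had 52.7, 65.9 and 55.7 CPM after imp dsRNA, in the order of the replicates, and 57.0, 70.7 and 72.04 CPM after luciferase dsRNA. It was the lower member of each pair, yet the groups overlapped, since imp dsRNA replicate 2 lay above luciferase dsRNA replicate 1. The fitted log2 fold change was -0.19, with a standard error of 0.17, and without replicate 3 it was -0.11.. The counts behind these levels were 71 to 292 per library.

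The opposing motor is ncd, a kinesin-14 that walks towards microtubule minus ends and draws poles together. It had 132, 155 and 135 CPM after imp dsRNA and 150.05, 198 and 165 CPM after luciferase dsRNA, on 172 to 732 counts. The imp dsRNA library was again the lower of every pair, with log2 ratios of -0.18, -0.35 and -0.29, and again the groups overlapped. A log2 fold change of -0.27 made it the most negative of the 9 (SE 0.15, unadjusted p = 0.097 by edgeR). By limma-voom its 95% interval ran from -0.60 to 0.056, so a rise of more than 1.04-fold or a fall to less than 0.661 of the control lay outside it. The ratio of ncd to Klp61F per kilobase of exon was 3.46 ± 0.107 (SD, n = 3) with imp dsRNA against 3.66 ± 0.379 (SD, n = 3) in controls, a difference smaller than the spread of the controls.

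Among the depolymerases, Klp10A is the kinesin-13 that shortens microtubules at the poles. It had 299, 292 and 273 CPM after imp dsRNA and 243, 292 and 295 CPM after luciferase dsRNA. It rested on the most reads, 323 to 1657 per library, and varied least, with its highest library 1.23-fold above its lowest. The treatments interleaved, and edgeR put the log2 fold change at 0.066 ± 0.16 (SE), which was -0.063 without replicate 1 and 0.16 without replicate 3..

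Klp59C, the kinesin-13 known to act at centromeres when chromosomes separate, had 1 count in imp dsRNA replicate 3 and 0 in the other 5 libraries. A count of 0 was taken to allow up to 3 counts, the usual one-sided limit, which is 0.541 CPM in the deepest library and 2.71 CPM in the shallowest. No fold between treatments was formed, and the gene was removed by the filter on low counts. Summed over the 6 libraries and divided by exon length, Klp10A stood 1782 times above Klp59C, with a 95% counting interval of 320 to 70403 that covers counting error only.

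Klp67A, a kinesin-8 that limits the length of spindle microtubules at kinetochores, had 61.7, 72.2 and 91.8 CPM after imp dsRNA and 69.8, 70.7 and 62.8 CPM after luciferase dsRNA. Replicate 3 after imp dsRNA was the highest library and replicate 1 after imp dsRNA the lowest. The log2 ratios of its pairs, -0.18, 0.031 and 0.55, did not share a direction. Over the 3 pairs its log2 fold change was 0.12, the most positive of the 9 (SE 0.19), and without replicate 3 it was -0.086.

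**Figure D2:**
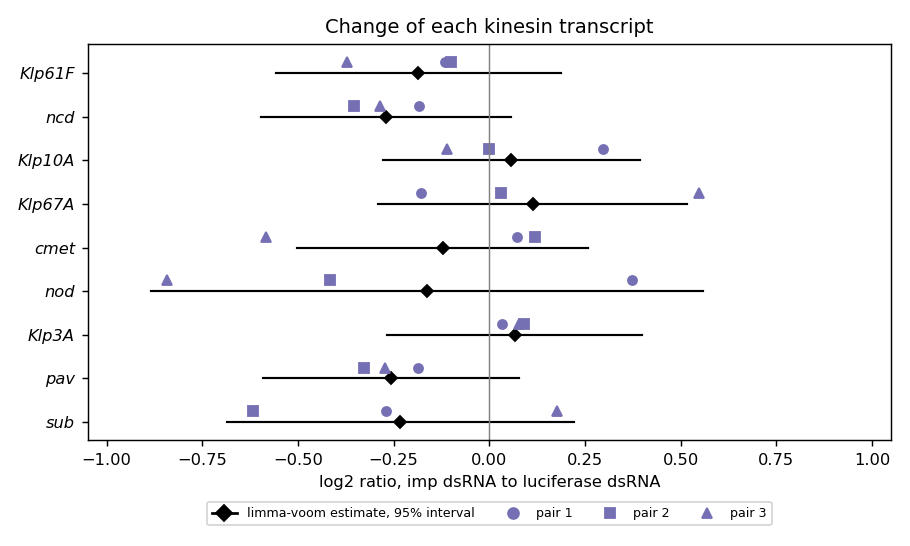
Treatment difference of each kinesin transcript, as log2 of imp dsRNA over luciferase dsRNA. Black diamonds and lines are limma-voom estimates with 95% intervals, and purple markers above each line are the ratios of the 3 pairs. Every interval covers 0 and stays between -1 and 1, and ncd, pav and Klp61F have all 3 pairs below 0.

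The motors that hold chromosomes were cmet and nod. The cmet gene encodes CENP-meta, a kinesin-7 related to vertebrate CENP-E that links kinetochores to microtubules. It had 133, 179 and 125 CPM after imp dsRNA and 127, 165 and 187 CPM after luciferase dsRNA. The first 2 pairs differed little, at log2 ratios of 0.074 and 0.12, and the third lay on the other side, at -0.58. Fitted over the 3 pairs, the log2 fold change was -0.12 (SE 0.18), and without replicate 3 it was 0.097. Its paralog cana, which lies head to head with it on chromosome 2L, had 0 counts in all 6 libraries. Per kilobase of exon cmet was at least 743-fold higher than cana, taking 3 counts over the 6 libraries as the floor.

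The nod kinesin, a chromokinesin of the kinesin-10 family, is best known for holding chromosomes without crossovers on the female meiotic spindle. It was the lowest of the 9, per length as well as in CPM, with 8.48, 8.13 and 7.06 CPM after imp dsRNA and 6.54, 10.8 and 12.7 CPM after luciferase dsRNA. The luciferase dsRNA libraries spanned the whole range of the gene. The counts were 9 in each of imp dsRNA replicates 2 and 3, and 9 counts carry a 95% Poisson interval of 4.12 to 17.1. Its log2 fold change of -0.20 had the largest standard error of the 9, 0.34, and was 0.072 without replicate 3.

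The central spindle motors were Klp3A, pav and sub. Klp3A, a kinesin-4 of chromosome arms and the central spindle, had 122, 141 and 101 CPM after imp dsRNA and 119, 132 and 95.9 CPM after luciferase dsRNA. Here the libraries followed the replicate number more closely than the treatment: both replicate 3 libraries were the lowest and both replicate 2 libraries the highest. The pairs differed by 0.033, 0.092 and 0.078 on the log2 scale, the smallest spread between pairs among the 9 (SD 0.031). From edgeR came a log2 fold change of 0.066 with a standard error of 0.15..

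The pav gene encodes Pavarotti, the kinesin-6 of the centralspindlin complex that is needed for cytokinesis. It had 97.4, 115 and 104.3 CPM after imp dsRNA and 111, 144 and 126 CPM after luciferase dsRNA. Each imp dsRNA library was below its partner, by 0.19, 0.33 and 0.27 on the log2 scale, while the groups overlapped because luciferase dsRNA replicate 1 lay below imp dsRNA replicate 2. By edgeR the log2 fold change was -0.26 (SE 0.16, unadjusted p = 0.12), with a limma-voom interval of -0.59 to 0.079.

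The second kinesin-6, sub or Subito, organises the central part of the female meiotic spindle and also takes part in mitosis. It had 34.6, 26.2 and 36.9 CPM after imp dsRNA and 41.8, 40.2 and 32.6 CPM after luciferase dsRNA. The first 2 pairs were lower after imp dsRNA and the third was higher. Across pairs the log2 fold change was -0.23, with a standard error of 0.21. It was -0.071 without replicate 2 and -0.39 without replicate 3.. The ratio of pav to sub per kilobase of exon was 2.56 ± 0.690 (SD, n = 3) with imp dsRNA against 2.58 ± 0.487 (SD, n = 3) in controls, and pav was the higher per length in all 6 libraries.

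Read together, 3 of the 9 transcripts, Klp61F, ncd and pav, were lower after imp dsRNA in all 3 pairs, against 12.2% of the 6526 genes tested, and 1, Klp3A, was higher in all 3 pairs, against 11.3%. The log2 fold change was below 0 for 6 of the 9 and for 51.5% of all genes, and the medians were -0.19 and -0.0067. For none of the 9 did all imp dsRNA libraries lie on one side of all luciferase dsRNA libraries, a pattern that 3.39% of all genes showed downwards and 2.8% upwards. These shares describe the 9 and are no test. The limma-voom intervals of all 9 lay between -1 and 1, as did those of 90.9% of all genes, so a 2-fold change was outside the interval of each. The widest was that of nod, -0.89 to 0.56, and the others reached no lower than -0.69 and no higher than 0.52.

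Levels were next compared between genes per kilobase of exon, with exon lengths from the BDGP6 annotation. In control cells ncd led with 62.9 ± 9.14 CPM per kilobase (SD, n = 3), followed by Klp10A with 53.7 ± 5.64 (SD, n = 3) and pav with 39.6 ± 5.15 (SD, n = 3). Klp3A at 25.6 ± 4.06, cmet at 22.8 ± 4.34 and Klp67A at 22.0 ± 1.40 formed the middle (CPM per kilobase, SD, n = 3). Klp61F at 17.2 ± 2.14, sub at 15.5 ± 1.99 and nod at 4.09 ± 1.28 were the lowest of those detected. Neighbours whose ranges over the 6 libraries overlapped were ncd and Klp10A, pav and Klp3A, Klp3A and cmet, cmet and Klp67A, and Klp61F and sub. The steps from Klp10A to pav, from Klp67A to Klp61F and from sub to nod were seen without overlap of these neighbours. The middle and low genes were still not fully apart, since cmet (17.8 to 26.7 CPM per kilobase) overlapped Klp61F (13.6 to 18.6). After imp dsRNA ncd had 51.7 ± 4.67 and Klp10A 55.9 ± 2.59 CPM per kilobase (SD, n = 3), so the order of the leading pair was the other way round. The same held for Klp67A at 24.4 ± 4.95 and cmet at 20.8 ± 4.14 CPM per kilobase (SD, n = 3), and the ranges over the 6 libraries overlapped within both pairs. Among 9179 genes with a count and an annotated length, ncd lay at percentile 86.6 in control cells, Klp61F at 62.3 and nod at 37.3.

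**Figure D3:**
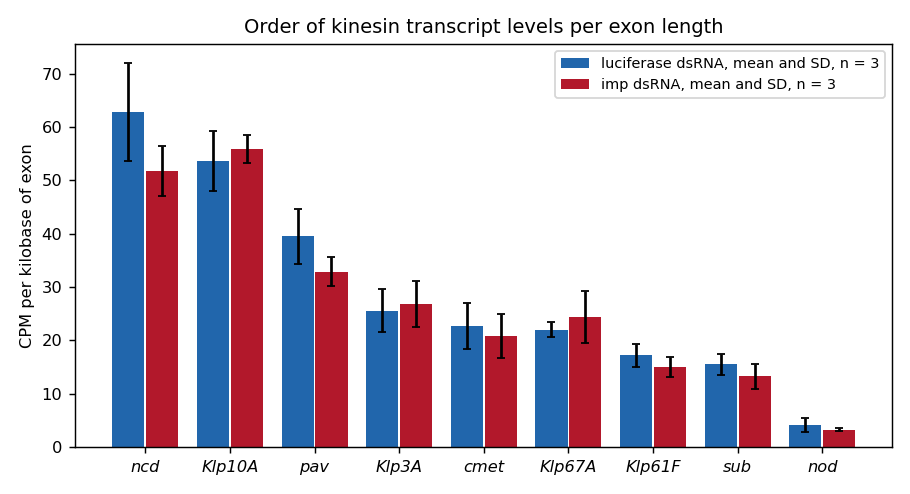
Kinesin transcript levels in CPM per kilobase of exon, ordered by the luciferase dsRNA mean. Bars are means of 3 libraries and error bars are SD, blue for luciferase dsRNA and red for imp dsRNA. ncd and Klp10A lead at 62.9 and 53.7 in control cells and nod closes the order at 4.09, and with imp dsRNA the order differs in that Klp10A, at 55.9, lies above ncd and Klp67A, at 24.4, above cmet.

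Besides the treatment and the library totals, the day on which the cells were treated was a known difference between libraries. In an F test of the replicate number within the same edgeR fit, 207 of 6526 genes (3.17%) had an adjusted p under 0.05, and 0 of the 9 kinesin transcripts were among them. None had an unadjusted p under 0.05 either, against 14.6% of all genes. At these shares 0 of 9 does not show that the kinesins varied less between days than other genes. The nearest was Klp3A, with an F of 2.97 (unadjusted p = 0.087, adjusted p = 0.419 by edgeR), whose fitted log2 difference of replicate 3 from replicate 1 was -0.29. The fitted log2 difference between replicates 2 and 1 ran from -0.18 for sub to 0.39 for cmet. These differences were not set against those of all genes, so a shift shared by the kinesins was not tested. From the highest to the lowest library, members other than nod differed between 1.23-fold for Klp10A and 1.60-fold for sub, and nod, on the fewest counts, by 1.94-fold.

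**Figure D4:**
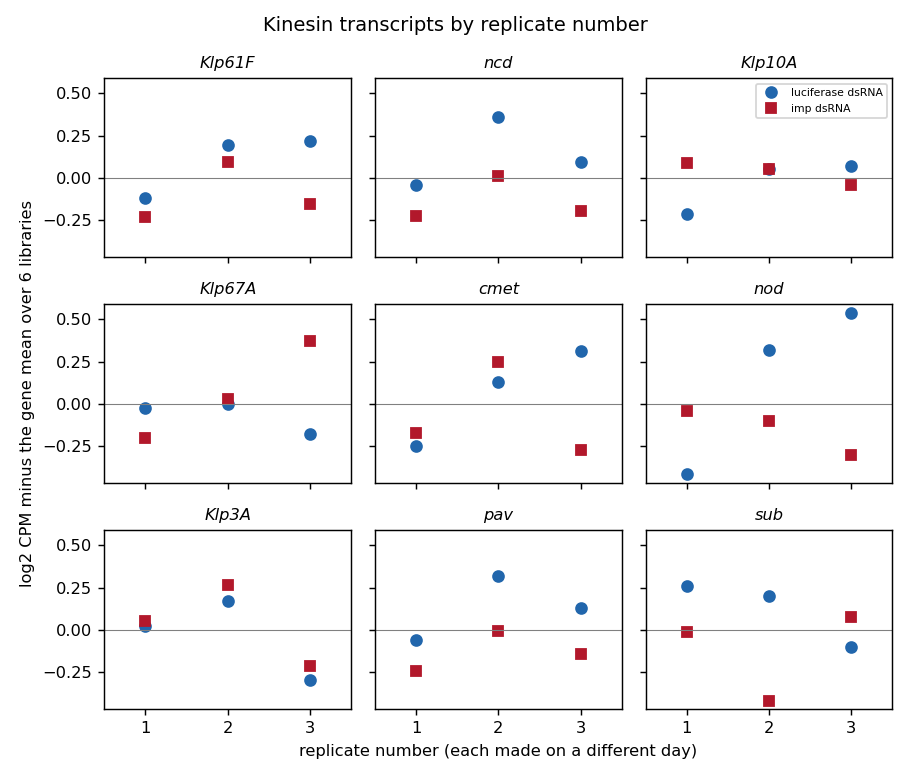
Kinesin transcripts by replicate number, each number made on a different day. Points are log2 CPM minus the gene's mean over the 6 libraries, blue circles for luciferase dsRNA and red squares for imp dsRNA. For Klp3A both treatments are highest in replicate 2 and lowest in replicate 3, while for Klp61F, Klp67A, cmet and nod the treatments part most in replicate 3.

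The partners of these motors were read from lists of spindle genes. Of 37 symbols of spindle assembly and microtubule regulators, such as the augmin and gamma-tubulin ring subunits, 34 were matched and tested. By edgeR 0 had an adjusted p under 0.05, and at an unadjusted p under 0.05 there were 0 higher and 1 lower, where 1.62% of all genes were higher and 1.26% lower. That gene was Grip128, a gamma-tubulin ring complex subunit, with 8.48, 5.42 and 6.28 CPM after imp dsRNA and 14.5, 12.5 and 10.7 CPM after luciferase dsRNA. Its groups did not overlap, a pattern that 3.39% of all genes showed downwards. It differed by -0.87 on the log2 scale (SE 0.30, unadjusted p = 0.013 and adjusted p = 0.999 by edgeR), on as few as 6 counts in a library. With 2.88% of all genes under an unadjusted p of 0.05 by edgeR in either direction, 1 of 34 is no result about this list. The median log2 fold change of this list was -0.057, with 10 genes above 0 and 24 of 34 below, beside -0.0067 and 51.5% below 0 over all genes.

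Of 35 symbols of chromosomal passenger, checkpoint, kinetochore and mitotic entry genes, 29 were matched and 28 tested. By edgeR 0 had an adjusted p under 0.05 for the treatment (0% of all genes) and 0 an unadjusted p under 0.05 (2.88% of all genes). At these shares 0 of 28 is no result about these genes. The median log2 fold change was -0.11, with 9 genes above 0 and 19 of 28 below and a range from -0.37 to 0.33, again beside -0.0067 and 51.5% over all genes. In the edgeR test of the replicate number 0 genes of either list had an adjusted p under 0.05, where 3.17% of all genes did. At an unadjusted p under 0.05 there were 4 of 34 in the first list and 5 of 28 in the second, against 14.6% of all genes.

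Positions are those of BDGP6, a later build than the dm3 used by the authors. On the X chromosome are Klp3A (2599158 to 2604052), Klp10A (11129362 to 11137118) and nod (11580772 to 11585750). On 3L are Klp61F (1241568 to 1245910), pav (4242734 to 4246233) and Klp67A (9362636 to 9367046), and on 3R is ncd (29804290 to 29807127). On 2L is cmet (11261026 to 11269002), and on 2R are sub (17745500 to 17748078) and Klp59C (23123923 to 23126042), the latter with a single exon block. Klp10A alone shares its strand with an overlapping gene, CG44385, which covers 0 bases of its exons. Genes on the opposite strand overlap Klp61F, ncd, Klp67A, cmet, nod and sub, and the authors counted reads by strand.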

How the data were processed

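Counts of S2 cell RNA-seq libraries, 3 after imp dsRNA and 3 after luciferase dsRNA, were used. Immunoprecipitated samples (iCLIP, PAR-iCLIP, RIP-seq) and their inputs were not analysed here. The authors aligned reads by BWA-PSSM to an index of fly (dm3) and spiked-in yeast, and deposited raw counts of confidently mapped reads per gene, by strand and with reads over several genes dropped. The adapter held a random barcode of 7 bases that lets PCR duplicates be collapsed, and whether the deposited counts were collapsed is not given in the sources used here. A row naming no gene held 0 counts (0% of reads) and was left out. The authors deposited a second file with the other content of their DESeq comparison (group means, fold changes and p-values), of which gene symbols alone were read. No column of per-sample values was left unmapped.

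Counts were fitted in R 4.3.3 with edgeR 4.0.16: filterByExpr, which left 6526 genes, TMM scaling, a block for the replicate number, and quasi-likelihood tests adjusted by Benjamini-Hochberg over all genes tested (threshold 0.05). Of the 10 kinesins 9 passed the filter. The methods treat replicates as paired for the dispersion, and same-numbered libraries did deviate together from their group means (correlation 0.30 to 0.48 of log2 CPM with a prior count of 2). Standard errors (SE) were derived by dividing the size of the log2 fold change by the root of F. Intervals of fold changes came from limma-voom (limma 3.58.1). DESeq2 1.42.0 was an alternative. The replicate number was tested by the F test of both of its coefficients. The fits were tested on simulated data in which every gene had the same dispersion, which does not give their power on these data. The p-values of the main fit rest on the spread left after treatment and replicate number are fitted, over these 3 cultures per treatment.

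Exon lengths and positions came from the BDGP6 annotation, in which 9546 of 9977 gene identifiers and all 10 kinesins were found. Library totals set the precision: 1081882 to 5463535 counts. Poisson intervals, the interval of the Klp10A to Klp59C ratio and the floors cover counting error only, whereas limma-voom intervals include the spread between libraries. The kinesins and the lists were chosen with earlier results of these data known. Named genes are the kinesins, Imp, cana, and at most 3 genes per list with the smallest unadjusted p under 0.05 for treatment or the largest F past 0.05 for replicate number. The marker genes named, Khc, Klp54D, Kif19A and Kif3C were picked after their values were seen. Alternatives were other scaling, filters, tests, no block, and each replicate left out.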

Additional observations from a re-analysis of the deposited data

How the results depend on the processing

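For the 9 kinesin transcripts, 89 alternative fits of single log2 fold changes were run, of which 85 kept the direction and stayed above an adjusted p of 0.05, 4 reversed and 0 passed it, with adjusted p-values from 0.457 upwards. The 4 reversals came from leaving out a replicate, and ranged without each replicate from -0.063 to 0.16 for Klp10A, -0.086 to 0.29 for Klp67A, -0.24 to 0.097 for cmet and -0.63 to 0.072 for nod. Without reversing, sub ranged from -0.39 to -0.071 and Klp61F from -0.24 to -0.11. The cause was not tested. The number of kinesins at an unadjusted p under 0.05 for treatment, or at an adjusted p under 0.05 for replicate number, was 0 under every alternative run, nod being absent with at least 10 counts required in every library. Dropping a replicate put their median log2 fold change between -0.24 and -0.086, the latter without replicate 3, and the mean log2 ratio of their summed level from -0.13 to -0.034. The median was -0.21 with no replicate block, and the pairing changed no call of a kinesin.

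Over all genes, the count at an adjusted p under 0.05 for treatment was 0 by edgeR (188 at an unadjusted p under 0.05) and 0 by limma-voom (197), became 4 with no filter, and DESeq2 with the replicate block gave 1. Leaving out each replicate gave 0 to 58, the 58 without replicate 3, where Imp itself passed (-1.35 on the log2 scale). Imp also passed with no filter (-1.18) and by DESeq2 with the replicate block (-1.16), and in none of the other alternatives. At an unadjusted p under 0.05 it was 72 with no replicate block, 66 and 40 by DESeq2 with and without the block, and between 79 and 853 when a replicate was dropped (853 without replicate 3). For the replicate number, the 207 genes became 512 with no filter and were 73 to 863 on dropping a replicate. Depth limits nod and Klp59C most.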

Other observations

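Other kinesins of the cell, mostly motors of transport, were measured in the same libraries. Of 21 symbols of other kinesins and their partners, 15 were matched and 11 tested, and by edgeR 0 had an unadjusted p under 0.05 for treatment (2.88% of all genes) and 0 an adjusted p under 0.05 for replicate number (3.17%), shares at which 0 of 11 is no result about these genes. Their log2 fold changes ran from -0.41 to 0.37 with a median of -0.045. Khc, the heavy chain of conventional kinesin, had 58.1 CPM per kilobase of exon in control cells, near the 62.9 of ncd, and edgeR put its log2 difference at -0.084 (SE 0.17, adjusted p = 0.999).

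The 4 matched kinesins that were not tested, named with their values known, were Klp54D, cana, Kif19A and Kif3C. Klp54D had 0 to 6 counts per library, Kif19A and Kif3C 0 or 1, and cana 0. With Klp59C, they make 5 kinesin genes whose transcripts were at or near the detection limit in these cells.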
